A study of Mus musculus with 4 samples.

Results

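Chemokine ligands are small secreted or membrane-tethered proteins that recruit leukocytes by binding G protein-coupled receptors. The ligand genes examined here were all features of the merged count table whose symbol is Ccl or Cxcl followed by digits and at most 1 final letter, together with Cx3cl1 and Xcl1. This gave 38 genes of 32288 features, of which 34 had at least 1 unique molecular identifier (UMI, a tag that counts 1 captured mRNA molecule) in some cell. Ccl21b, Ccl21c, Ccl26 and Ccl27b had 0. Another 6 rows with duplicated symbols ending in a number fell outside the naming rule and held 1 UMI in all.

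The cells came from pancreata of Ptf1aCre-ERTM;ROSAYFP/+ mice on a CD-1 background, in which tamoxifen-induced Cre driven from the acinar gene Ptf1a turns on the fluorescent protein EYFP. All 4 mice were given tamoxifen and then repeated injections of caerulein, a cholecystokinin analogue that causes pancreatitis, starting at 10 weeks of age. Of these, 2 mice had been injured for 2 weeks and 2 for 4 weeks, and no uninjured mouse was analysed here. EYFP-positive cells were sorted, and their RNA was tagged at the polyadenylated end in droplets. Values of the 4 mice are given below in a fixed order: 2-week mouse 1, 2-week mouse 2, 4-week mouse 1, 4-week mouse 2. Replicate numbers only name the mice.

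The authors kept 13362 of the 21140 cells in an EYFP-positive table with 8 cell type names, and the other 7778 cells of the same libraries are treated as 1 outside group. Markers followed the names of the Acinar, MucinDuctal, Tuft and EEC types. The 6 acinar enzyme markers together took 74568 to 101874 CPM (the gene's share of all UMIs of the mouse and type, scaled per 1e6) in Acinar cells and 1319 to 4672 CPM in MucinDuctal cells, where mucin/ductal markers took 34976 to 126076 CPM against 2340 to 3616 CPM in Acinar cells. Tuft markers reached 4146 to 4362 CPM in Tuft cells, and enteroendocrine markers 5533 to 8439 CPM in EEC (enteroendocrine) cells. Cell numbers ranged from 139 Ductal-like cells over the 4 mice to 3983 MucinDuctal cells. Tuft/EEC.Progenitor cells numbered 10, 142, 25 and 28, so that type was described but not tested. Its name was not borne out by enteroendocrine markers, at 13.6, 17.6, 2.8 and 9.17 CPM, while tuft markers were at 183, 457, 243 and 277 CPM and mucin/ductal markers at 6705, 12112, 12515 and 11380 CPM. In 4-week mouse 1 it also held 1592 CPM of neutrophil markers. Median depth was 17998 UMIs in MucinDuctal and 27362.5 in Acinar cells, but 3674 in the intermediate Acinar/MucinDuctal cells, where the mice differed, with medians of 3387, 19556, 2659 and 3555 UMIs. Across libraries, 67 barcodes occurred more than once and covered 139 cells.

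Epithelial chemokines fall into ligands made constitutively at mucosal surfaces, ligands induced through NF-kappaB by cytokines and damage, and ligands induced by interferon. In damaged pancreas both epithelial cells and the macrophages that enter the tissue are known producers. Since a UMI here is 1 tag at the end of a transcript, CPM is not scaled by transcript length, and CPM are set against each other below for the same gene across cell types and mice. The types had been named from the same counts, so no p-value is given between types. In their place stand the values of every mouse and the number of mice that show an order.

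Of the 38 ligands, 19 reached a mean of 5 CPM over the 4 mice in at least 1 type. Ccl9, at 5.16 CPM in Ductal-like cells, was just inside that limit, and Ccl12, at 4.73 CPM in the same type, just outside. By mean CPM, Ductal-like was the highest type for 14 of these 19 ligands, of which 8 reached the limit in that small type alone, so the limit itself fixes much of this tally. The same type was highest for 21% of the 12361 genes that reached the limit. The other highest types were MucinDuctal for Cxcl17 and Ccl20, Acinar/MucinDuctal for Ccl6 and Ccl8, and EEC for Ccl25. Ccl6 and Ccl8 reached the limit in Acinar/MucinDuctal cells alone and Ccl20 in MucinDuctal cells alone, so their highest type too was fixed by the limit. Of all genes at the limit, 7.71% were highest in MucinDuctal, 0.445% in Acinar/MucinDuctal and 31.1% in EEC cells. By share of positive cells thinned to equal depth, the highest type was Acinar/MucinDuctal for Ccl9, Ccl22 and Cxcl2, MucinDuctal for Cx3cl1 and Ductal-like for Ccl20. A pair of patterns lay behind these means: ligands with UMIs in many cells of every mouse, and ligands whose UMIs lay in a few cells of 1 mouse.

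**Figure D1:**
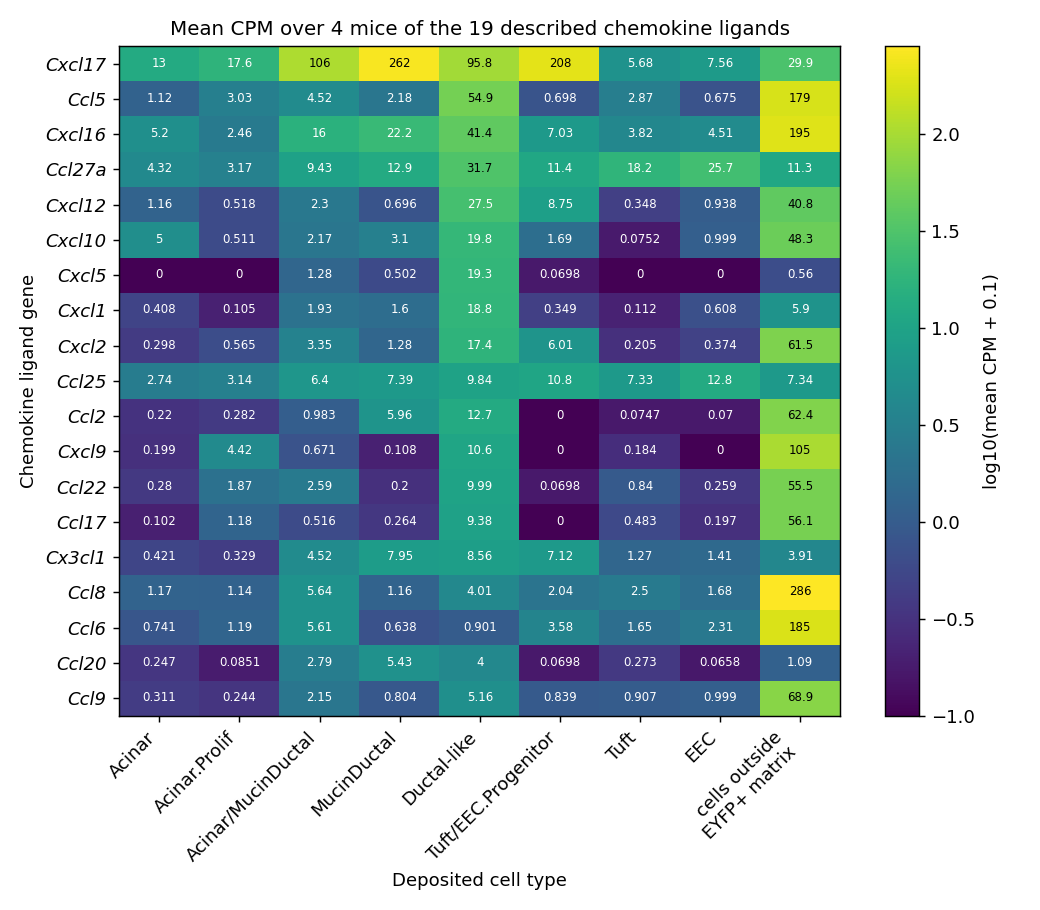
Mean CPM over 4 mice (number in each field, colour on a log10 scale with 0.1 added) of the 19 described ligands in rows, by deposited cell type in columns and in the cells outside the EYFP-positive table. Cxcl17 stands at 262 CPM in MucinDuctal cells, the 8 ligands that reach 5 CPM among typed cells in Ductal-like cells alone necessarily have their highest typed value there, and ligands such as Ccl8 (286 CPM) and Ccl6 (185 CPM) are highest in the outside group.

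Cxcl17, a mucosal chemokine found in airway, stomach and gut epithelium, was the ligand of the mucin-bearing cells. In GRCm38 it lies on chromosome 7 from 25400053 to 25412886 on the minus strand, with the noncoding gene 4732471J01Rik opposite it. That antisense gene was at 0.811, 0.324, 0.613 and 0.3 CPM in MucinDuctal cells, where Cxcl17 was at 229, 197, 343 and 280 CPM. Cxcl17 was next highest in progenitor cells, at 251, 134, 238 and 209 CPM, then at 79.6, 98.1, 152 and 93.2 CPM in Acinar/MucinDuctal and 78.3, 113, 98.2 and 93.7 CPM in Ductal-like cells. Acinar cells had 11, 19.3, 9.84 and 11.9 CPM. Tuft cells had 5.85, 4.11, 7.22 and 5.56 CPM and EEC 6.17, 9.28, 9.21 and 5.6 CPM.

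Every mouse thus had more Cxcl17 in the 4 types of duct or mucin character than in Acinar, Tuft or EEC cells, with no overlap between the lowest of the former and the highest of the latter. MucinDuctal against progenitor cells did not separate, since their ranges overlapped and the order held in 3 of 4 mice. The log2 ratio of MucinDuctal to Acinar cells was 4.24 ± 0.71 (SD, n = 4, on log2 of CPM + 1), and 3.30 when acinar enzyme genes, which take up much of the Acinar total, were left out of the totals. Cxcl17 was detected in 88.1% of 3983 MucinDuctal cells (95% exact binomial interval 87.1 to 89.1%, counting error only). Acinar cells, sequenced deeper, had it in 26% and Tuft cells, of like depth (median 18324 UMIs), in 5%. With every cell thinned to 1500 UMIs the shares were 31.1%, 2.03% and 0.628%. No cell held more than 67 of the 21986 Cxcl17 UMIs of MucinDuctal cells.

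Cxcl17 also differed among the deposited tuft and EEC subtypes. EEC progenitors marked by Neurog3 had 23.5, 24.4, 19.8 and 42.6 CPM. The delta (Sst+) cells had 11.2, 6.87, 6.34 and 8.63 CPM, and the ECL (Tac1+) cells 0, 5.21, 4.46 and 5.33 CPM. The Ppy+ cells had 1.69, 22.6, 7.98 and 8.24 CPM, and the epsilon cells 4.89, 4.36, 15.3 and 5.03 CPM. Among tuft subtypes Tuft-2 had 0, 1.26, 5.44 and 1.72 CPM and Tuft-3 had 0, 1.07, 1.24 and 1.13 CPM. Tuft-1 had at least 20 cells in 2 mice only, with 7.24 CPM in 2-week mouse 2 and 2.56 CPM in 4-week mouse 2. The Neurog3+ progenitors were above all of these subtypes in every mouse given, by little over the Ppy+ cells in 2-week mouse 2. The MucinDuctalProgenitor cells of the same labels were higher still, at 139 CPM in 2-week mouse 2 and 162 CPM in 4-week mouse 2. They too had at least 20 cells in these 2 mice only.

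Ccl27a, a skin and mucosal ligand of Ccr10, and Ccl25, the thymic and small-intestinal ligand of Ccr9, had the highest values among secretory-lineage and Ductal-like cells. Ccl27a was at 25.1, 27.5, 43.7 and 30.5 CPM in Ductal-like, 29.6, 21.9, 27.4 and 24.1 CPM in EEC, and 17.6, 18.9, 19.2 and 17.1 CPM in Tuft cells. MucinDuctal cells followed at 12.5, 12.3, 13.1 and 13.7 CPM, and Acinar cells at 4.71, 3.98, 3.37 and 5.21 CPM. EEC, Tuft, MucinDuctal and Acinar cells kept this order in all 4 mice without overlap, while Ductal-like and EEC cells overlapped. The log2 ratio to Acinar cells was 2.60 ± 0.52 in Ductal-like and 2.33 ± 0.29 in EEC cells (SD, n = 4). These ratios depended on the total used. Without acinar enzymes in it, no ligand was 2-fold above Acinar cells in every mouse in Tuft cells. As UMIs per cell, none was in Tuft cells or EEC. The order of EEC and Tuft cells holds for CPM, with median depths of 12560 and 18324 UMIs.

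The Ccl27a locus limits what these counts name. The gene (chromosome 4, 41769467 to 41774247, minus strand) overlaps the end of Il11ra1 on the other strand by 8 bases, and near-identical copies lie on the same chromosome, so reads could be split or misplaced. Il11ra1 was at 32.7, 8.76, 8.73 and 30.5 CPM in Ductal-like cells. The part of reads from Il11ra1 or from the copies in the Ccl27a counts was not tested.

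Ccl25 (chromosome 8, 4325210 to 4360020, plus strand) had its highest mean in EEC, at 12.1, 15.2, 10.8 and 13.2 CPM. Progenitors, at 6.78, 6.42, 14 and 16 CPM, and Ductal-like cells, at 10.6, 7.92, 6.55 and 14.3 CPM, overlapped with EEC. Tuft cells had 6.44, 8.59, 6.62 and 7.67 CPM, MucinDuctal cells 7.99, 7.26, 7.02 and 7.29 CPM, and Acinar cells 2.39, 3.8, 2.11 and 2.66 CPM. EEC exceeded Tuft, MucinDuctal and Acinar cells in 4 of 4 mice. Its log2 ratio of EEC to Acinar cells, 1.89 ± 0.09 (SD, n = 4), fell to 1.11 without the enzyme genes in the totals and to 0.77 as UMIs per cell. The size of that ratio depended on the total used. The neighbouring Elavl1, which overlaps the Ccl25 model on the other strand by 204 bases, was at 96.4, 114, 77.3 and 96 CPM in EEC.

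Within EEC, the 4 hormone subtypes and the Neurog3+ progenitors all carried both ligands. Ccl27a had its highest mean in delta (Sst+) cells, at 35.4, 34.3, 41.2 and 23 CPM, and its lowest in ECL (Tac1+) cells, at 14.6, 15.6, 20.1 and 19.5 CPM. The delta values exceeded the ECL values in 4 of 4 mice. Ppy+ cells, at 40.5, 15.8, 31.9 and 24.7 CPM, were above delta cells in 2 mice. Epsilon (Ghrl+) cells, which make ghrelin, had 28.3, 32.3, 22.7 and 27.7 CPM, between delta and ECL cells in 3 mice and above the delta cells in 4-week mouse 2.

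**Figure D2:**
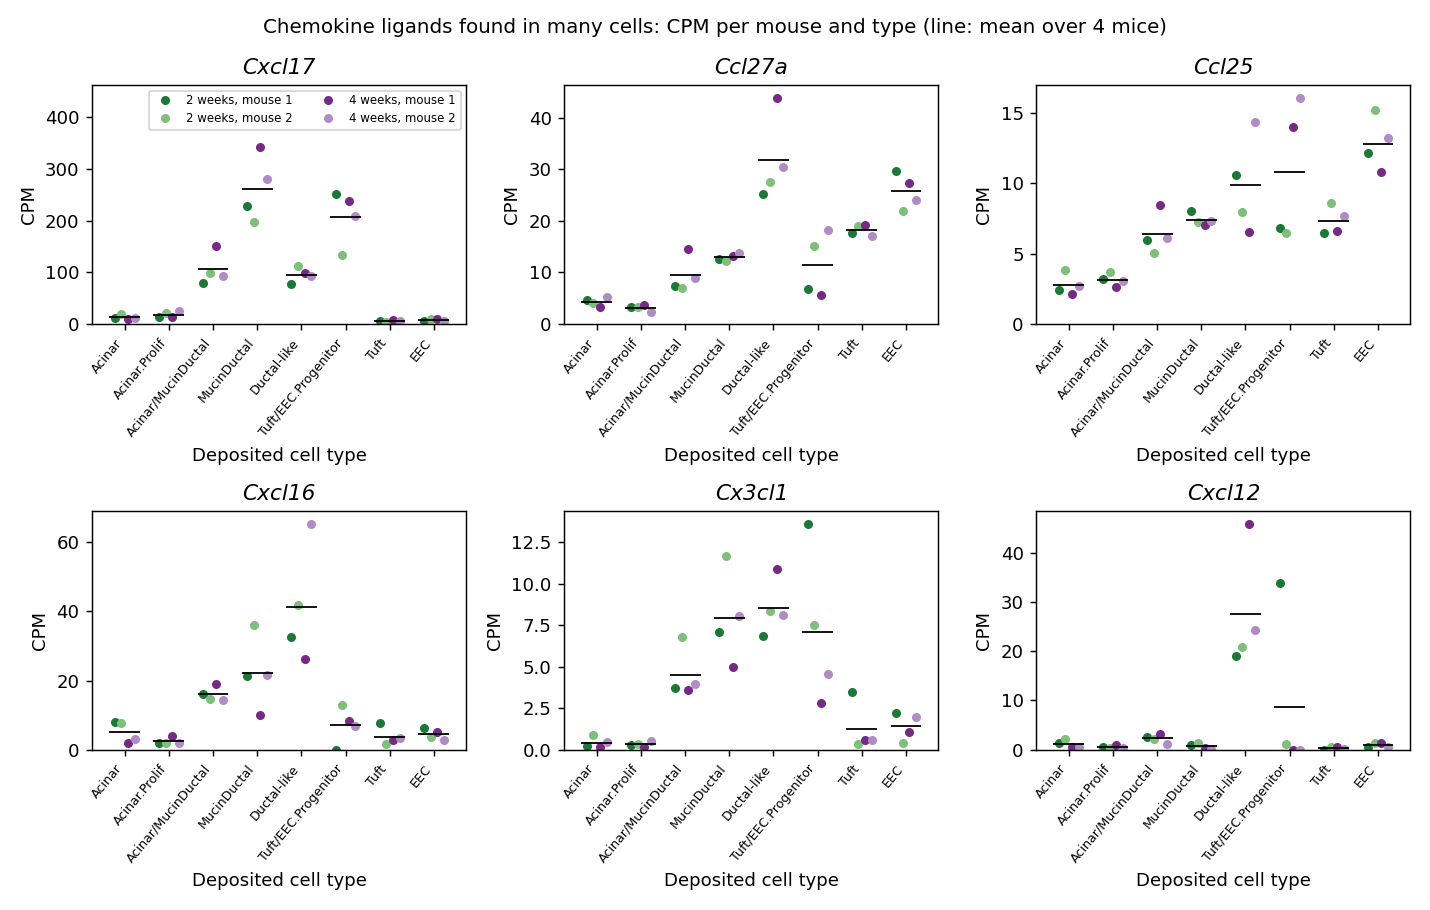
CPM in each mouse (points, 2-week mice green and 4-week mice purple) and mean over 4 mice (line) of 6 ligands with UMIs in many cells, by deposited cell type. Cxcl17 is high in MucinDuctal and progenitor cells, Ccl27a rises from Acinar through Tuft to EEC and Ductal-like cells, and Cxcl12 is at 19 CPM or more in each mouse's Ductal-like cells. The progenitor point of 2-week mouse 1 rests on 10 cells.

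Cxcl16 and Cx3cl1 are the chemokines made as membrane-anchored proteins, released by the proteases ADAM10 and ADAM17, and their receptors are Cxcr6 and Cx3cr1. Cxcl16 (chromosome 11, 70453983 to 70459984, minus strand) was at 32.7, 41.7, 26.2 and 65.2 CPM in Ductal-like, 21.2, 36.2, 9.97 and 21.5 CPM in MucinDuctal, and 16, 14.7, 18.9 and 14.3 CPM in Acinar/MucinDuctal cells. Acinar cells had 8.02, 7.66, 1.91 and 3.2 CPM. Cx3cl1 (chromosome 8, 94772009 to 94782427, plus strand) was at 6.84, 8.34, 10.9 and 8.15 CPM in Ductal-like and 7.07, 11.7, 5.01 and 8.06 CPM in MucinDuctal cells, and at 0.22, 0.864, 0.153 and 0.449 CPM in Acinar cells. For both ligands Ductal-like and MucinDuctal cells were above Acinar cells in 4 of 4 mice. Cx3cl1 did not separate Ductal-like from MucinDuctal cells, each being higher in 2 mice.

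MucinDuctal cells are 2 clusters in the authors' labels, and the membrane-anchored ligands divided them. Cxcl16 was at 74.9, 43.3, 41.2 and 44.8 CPM in cluster 1 and at 2.2, 5.73, 3.19 and 4.32 CPM in cluster 2. Cx3cl1 was at 15.5, 13.2, 12.2 and 14.5 CPM in cluster 1 against 4.08, 5.01, 3.46 and 3.35 CPM in cluster 2. Neither gene's clusters overlapped. Cxcl17 was higher in cluster 1 in 4 of 4 mice as well (364, 205, 477 and 293 against 181, 163, 314 and 270 CPM), but its ranges overlapped. Cluster 1 made up 113 of 371, 1138 of 1388, 228 of 961 and 551 of 1263 MucinDuctal cells. The 2-week mouse 2, with the largest share of cluster 1, had the highest Cxcl16 level of the whole type. The 4-week mouse 1, with the smallest share, had the lowest. Cxcl16 was at 21.2 CPM in 2-week mouse 1 and 21.5 CPM in 4-week mouse 2, whose shares differed. The part of the cluster shares in the Cxcl16 level of the type was not tested. The clusters had been drawn on these counts, and the values are a description.

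Acinar cells are 3 clusters in the same labels. Cxcl16 was at 18.6, 30.4, 6.97 and 6.72 CPM in the authors' Acinar cluster 6 and at 1.56, 1.9, 0.859 and 0.627 CPM in Acinar cluster 0, and at 3.17, 2.77, 1.85 and 1.22 CPM in Acinar cluster 8. Cxcl17 was highest in cluster 8, at 20.1, 37.3, 19.4 and 44.4 CPM, with 11.6, 9.34, 8.65 and 9.14 CPM in cluster 6 and 9.01, 9.49, 9.04 and 11.3 CPM in cluster 0.

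The 2 shedding proteases were present in every type. Adam10 was at 58.1 to 74.9 CPM in MucinDuctal and 34.8 to 59.4 CPM in Acinar cells, and Adam17 at 29.7, 30, 28.5 and 30.9 CPM in MucinDuctal against 6.13, 9.16, 5.48 and 5.19 CPM in Acinar cells. Neither passed the test over time in the 7 types tested (edgeR quasi-likelihood test). In EEC both had an unadjusted p under 0.05, with log2 differences of -0.45 ± 0.16 for Adam10 and -0.49 ± 0.20 for Adam17 (adjusted p = 0.986 for each by edgeR).

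Of 23 chemokine receptor genes, 5 had no UMI in Acinar cells, 5 none in MucinDuctal cells, 5 none in EEC and 6 none in Tuft cells. Ackr4 and Cxcr6 had their highest levels among the types in Tuft cells. Ackr4, a scavenger receptor that takes up Ccl19, Ccl21 and Ccl25, was at 29.9, 15.9, 26.8 and 19.7 CPM in Tuft cells and had a mean of at most 0.763 CPM in the other types. Cxcr6, the Cxcl16 receptor, was at 7.61, 8.44, 21.4 and 24 CPM in Tuft cells and had a mean of at most 0.305 CPM in the other types. Cxcr6 is best known from T cells. The 7 T or NK cell markers together were at 1.76, 2.99, 6.62 and 4.6 CPM in Tuft cells, with none at 0. Their part in the Cxcr6 values was not tested. Both 4-week mice were above both 2-week mice for Cxcr6. The log2 difference of 1.47 ± 0.22 (SE) had an adjusted p of 0.115 over the 10967 genes tested in Tuft cells by edgeR, and it did not pass.

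Cxcl12, the stromal ligand of Cxcr4 that retains leukocytes and progenitors, set the Ductal-like cells apart from the other types. It was at 19, 20.9, 45.8 and 24.4 CPM there, and 46% of the 139 cells had it (exact interval 37.6 to 54.7%), against 1.26% of MucinDuctal and 3% of Acinar cells. The largest single cell held 6 of its 108 UMIs. In the other types its values stayed at or below 3.21 CPM, apart from 33.9 CPM in the 10 progenitor cells of 2-week mouse 1. Of all 2458 Cxcl12 UMIs, 2051 lay in the outside group. The log2 ratio to Acinar cells was 3.71, and 3.82 without cells holding at least 3 UMIs of immune markers. Markers of cell types known for Cxcl12 were measured beside it. The 6 pericyte and smooth muscle markers summed to 360, 262, 242 and 481 CPM in Ductal-like cells, with none at 0, and to at most 28.9 CPM in the other types. Fibroblast markers summed to 12.9, 76.3, 15.3 and 16.3 CPM with none at 0. Endothelial markers summed to 2.28, 2.09, 13.1 and 2.04 CPM, with Cdh5, Emcn and Cldn5 at 0 and the other 3 present. They were highest in 4-week mouse 1, which also had the highest Cxcl12. The part of the pericyte, fibroblast and endothelial markers in the Cxcl12 values was not tested.

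The ELR-type CXC ligands Cxcl1, Cxcl2 and Cxcl5 attract neutrophils through Cxcr2 and are textbook NF-kappaB targets. Cxcl1 was at 16.7, 50, 4.37 and 4.07 CPM in Ductal-like cells, with 8, 15, 2 and 1 positive cells. Both 2-week mice were above both 4-week mice, but in 2-week mouse 2 a single cell held 53 of 120 UMIs. Cxcl2 was at 3.04, 66.7, 0 and 0 CPM in the same type, and 145 of the 160 UMIs of 2-week mouse 2 were in 1 cell. Cxcl5 was at 6.08, 65.1, 0 and 6.11 CPM, and another single cell held 149 of the 156 UMIs. Leaving that cell out put Cxcl5 of 2-week mouse 2 at 2.98 CPM, next to 6.08 CPM in 2-week mouse 1. In Acinar, Acinar.Prolif, Tuft and EEC cells Cxcl5 had 0 UMIs in every mouse, which over 3698 Acinar cells allows a share of up to 0.0811% of cells with a UMI.

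The promoters of the NF-kappaB-type and interferon-type ligands are shown for 4 inducible ligands described here. They were taken from RefSeq entries on GRCm38.p6, in which 27 of the 38 ligands matched with 33 start sites. The 250 bases before each start were searched on both strands. Cxcl5, Ccl2, Ccl5, Cxcl16 and Cxcl17 were among the ligands without an entry and could not be searched. Each of the 4 ligands shown held a match. Capitals mark matches to the NF-kappaB consensus and, in Cxcl10 alone, also to the interferon-stimulated response element (ISRE, searched as GAAA, any 2 bases, GAAA). The windows are Cxcl1 (plus strand, chr5:90891162-90891196), Cxcl2 (plus strand, chr5:90903790-90903824), Cxcl10 (minus strand, chr5:92348971-92349114) and Ccl20 (plus strand, chr1:83116674-83116707).
Cxcl1: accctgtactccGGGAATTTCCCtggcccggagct
Cxcl2: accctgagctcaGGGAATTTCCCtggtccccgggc
Cxcl10: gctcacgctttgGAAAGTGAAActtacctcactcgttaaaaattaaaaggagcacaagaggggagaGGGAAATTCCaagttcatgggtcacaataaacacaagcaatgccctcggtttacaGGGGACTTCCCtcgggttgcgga
Ccl20: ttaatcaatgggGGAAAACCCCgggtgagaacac

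Cxcl1 and Cxcl2 carry the same capital run, in which 2 overlapping matches read from either strand. In Cxcl10 the first capitals are the ISRE match and the other capitals are NF-kappaB matches, some overlapping. An NF-kappaB match was present in 7 of the 33 ligand promoters and in 7.25% of all 32851 promoters of the table. An ISRE match was present in 3 of 33, those of Cxcl10, Ccl19 and Cxcl14, and in 2.98% of all. The Cxcl9 window held neither. These are letter matches and were not tested as binding sites.

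Cxcl9 and Cxcl10 are interferon-induced ligands of Cxcr3 that attract activated T cells. Cxcl10 (chromosome 5, 92346638 to 92348889, minus strand, inside the Art3 gene of the other strand) was at 48.7, 0, 2.18 and 28.5 CPM in Ductal-like cells, 15.6, 1.44, 2.37 and 0.533 CPM in Acinar cells and 11.5, 0.783, 0 and 0.129 CPM in MucinDuctal cells. The 2-week mouse 1 was the highest of the 4 mice in all 3 types. In that mouse, however, 1 cell held 33 of the 64 Cxcl10 UMIs of Ductal-like cells. Another held 78 of the 99 UMIs of MucinDuctal cells, so the order in these 2 types rests largely on single cells. The 784 Cxcl10 UMIs of 2-week mouse 1 in Acinar cells lay in 68 cells, and without the top cell the level was 11.9 CPM. Acinar cluster 6 had most of it, at 40.7, 6.93, 13.7 and 1.21 CPM, against 0.782, 0, 0.253 and 0.0522 CPM in cluster 0. Art3 had 0 UMIs in Ductal-like cells.

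Other interferon response genes, taken as a sum, were also highest in that mouse. Over time edgeR called 0 of 11 tested in Acinar, 0 of 12 in MucinDuctal and 0 of 10 in Ductal-like cells. The 12-gene interferon list summed to 241, 43.8, 22.7 and 30.2 CPM in Acinar, 638, 249, 193 and 260 CPM in MucinDuctal and 2389, 236, 369 and 320 CPM in Ductal-like cells, so that 2-week mouse 1 stood above the rest in each. In the outside group it summed to 2505, 532, 705 and 620 CPM, and Cxcl9 there was at 333, 32.8, 40.9 and 14.7 CPM. The other 2-week mouse was not raised in the same way. It lay above both 4-week mice in Acinar cells, between them in MucinDuctal cells and below both in Ductal-like and outside cells. Among typed cells Cxcl9 was at 42.6, 0, 0 and 0 CPM in Ductal-like cells, where 1 cell held all 56 UMIs together with 33 of the 64 Cxcl10 UMIs. That cell also had 192 UMIs of macrophage markers.

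Immediate early genes, which tissue dissociation is known to induce, were highest in 2-week mouse 2 instead, and in Acinar cells both 2-week mice were above both 4-week mice. They summed to 466, 1284, 206 and 253 CPM in Acinar and 1584, 3498, 1744 and 2379 CPM in MucinDuctal cells. Of the 8 genes only Atf3 was called over time in any type, at -2.39 ± 0.25 (log2, SE, 4 over 2 weeks, adjusted p = 0.0144 by edgeR) in Acinar.Prolif cells. Cxcl1 and Cxcl2 were also highest in 2-week mouse 2, at 0.807 and 0.922 CPM in Acinar and 3.8 and 2.54 CPM in MucinDuctal cells. The part of dissociation in these values was not tested.

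Single cells held most of the UMIs of some ligands. Counting cases in which 1 cell held at least 20 UMIs and more than 50% of a ligand's UMIs in its mouse and type gave 23 cases in 16 cells, spread over 10 ligands, of which Ccl7 was under the limit of 5 CPM. Of these 16 cells, 10 held at least 3 UMIs of macrophage, neutrophil, T or NK, or B cell markers, and the other 6 did not. Over all types, 2344 of the 13362 typed cells reached that level. The 2 counts are not matched for depth. Most of the 16 cells were deeper than the median of their mouse and type, up to 123601 against 38506 UMIs.

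Ccl17 and Ccl22, ligands of Ccr4 made by dendritic cells and macrophages, were at 37.5 and 39.2 CPM in the Ductal-like cells of 2-week mouse 2. In the other 3 mice Ccl17 had 0 and Ccl22 at most 0.76 CPM. All 90 Ccl17, all 94 Ccl22 and 145 Cxcl2 UMIs came from the same cell, which had 123601 UMIs against a median of 38506 in its mouse and type, and 5 of 6 dendritic markers detected. Another cell, among Acinar.Prolif cells of 4-week mouse 1, held 98 of 99 Cxcl9, 26 of 27 Ccl17 and 33 of 36 Ccl22 UMIs. Both cells had 12 macrophage-marker UMIs, but the second had only 1 of 6 dendritic markers detected. Without cells holding at least 3 immune UMIs, the mean log2 ratio of Ductal-like to Acinar cells went from 1.18 to -0.10 for Ccl17, from 1.18 to -0.14 for Ccl22 and from 1.14 to -0.18 for Cxcl9.

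Other such cells bore few or no macrophage-marker UMIs. In 2-week mouse 1 a single MucinDuctal cell held all 202 Ccl2 UMIs and 79 of 82 Ccl20 UMIs, with 0 macrophage, T or NK, neutrophil, B cell and fibroblast marker UMIs and 1 dendritic-marker UMI among its 76333. Ccl2 is the main monocyte attractant, and it was at 23.4, 0.324, 0.0557 and 0.0429 CPM in MucinDuctal cells, hence at 0 in 2-week mouse 1 without that cell. Ccl2 in Ductal-like cells was at 2.28, 36.3, 0 and 12.2 CPM, where 1 cell held 50 of the 87 UMIs of 2-week mouse 2. A second MucinDuctal cell of 2-week mouse 1 held 78 of 99 Cxcl10 and 38 of 43 Ccl5 UMIs with 1 macrophage-marker UMI.

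Ccl5, a T cell and monocyte attractant, was uneven in the same way. It was at 158, 0.417, 0 and 61.1 CPM in Ductal-like cells, in 6, 1, 0 and 2 positive cells, and at 91.7 CPM in 2-week mouse 1 without its top cell. T or NK markers in Ductal-like cells were at 8.36, 5.42, 6.55 and 112 CPM, highest in 4-week mouse 2, with Nkg7 and Klrb1c at 0. Whether they account for its Ccl5 was not tested.

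Ccl20, the Ccr6 ligand of mucosal epithelium, differed from these in part. It was at 9.5, 4.97, 3.4 and 3.86 CPM in MucinDuctal cells. Without the top cell of each mouse it stood at 0.351, 4.57, 2.96 and 3.18 CPM. With the top cells, 4, 82, 32 and 45 cells were positive. In Acinar cells it was at 0, 0.519, 0.0766 and 0.392 CPM, below MucinDuctal cells in every mouse.

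**Figure D3:**
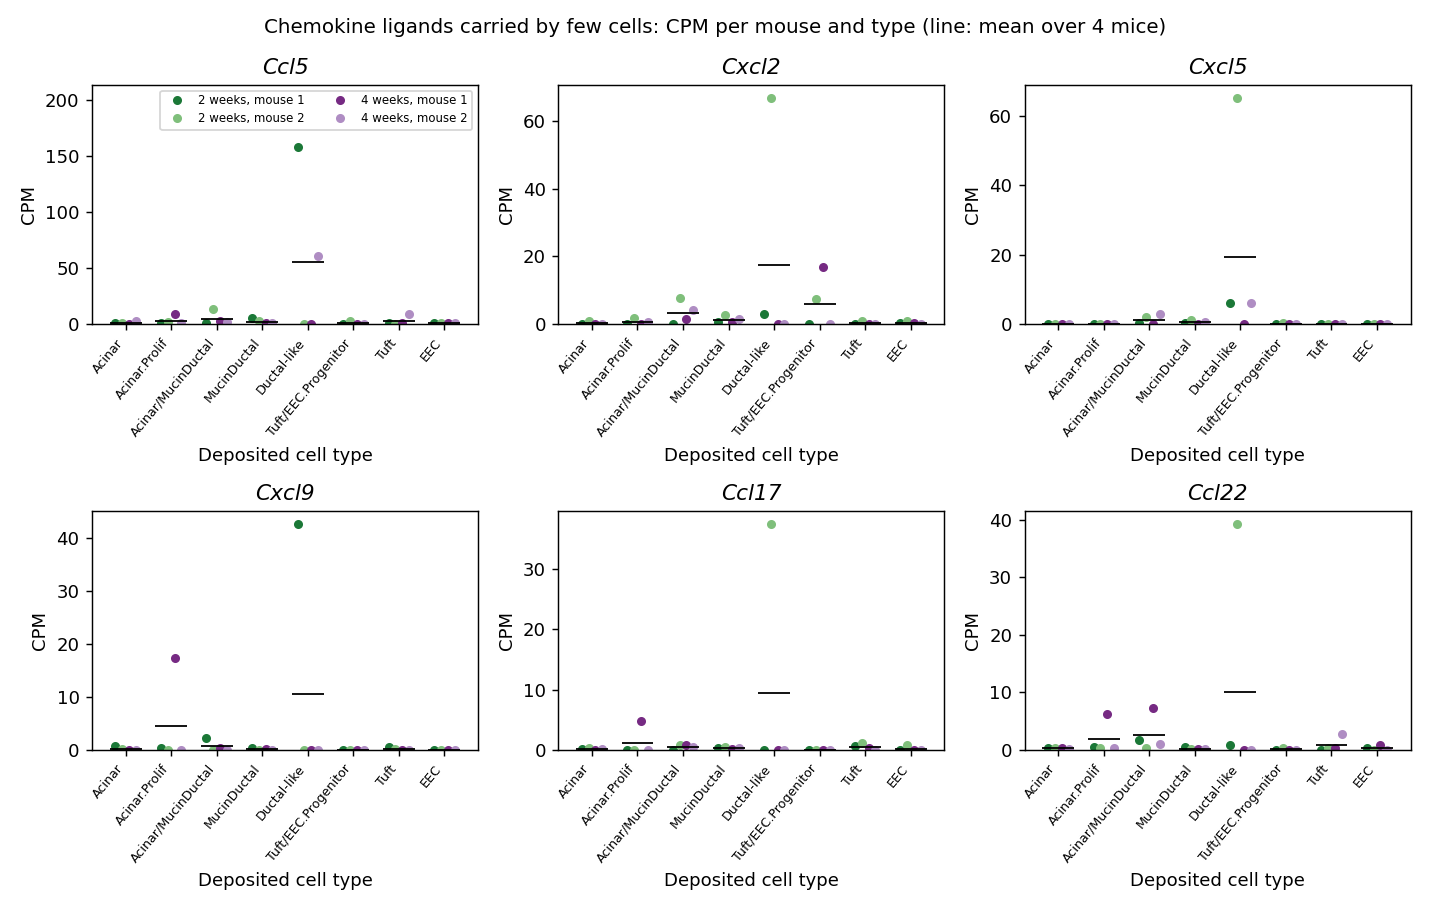
CPM in each mouse (points, colours as 2-week green and 4-week purple) and mean over 4 mice (line) of 6 ligands carried by few cells, by deposited cell type. In each panel the mean of Ductal-like cells is set by 1 or 2 mice, as for Ccl17 at 37.5 CPM in 2-week mouse 2 and 0 in the other mice.

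**Figure D4:**
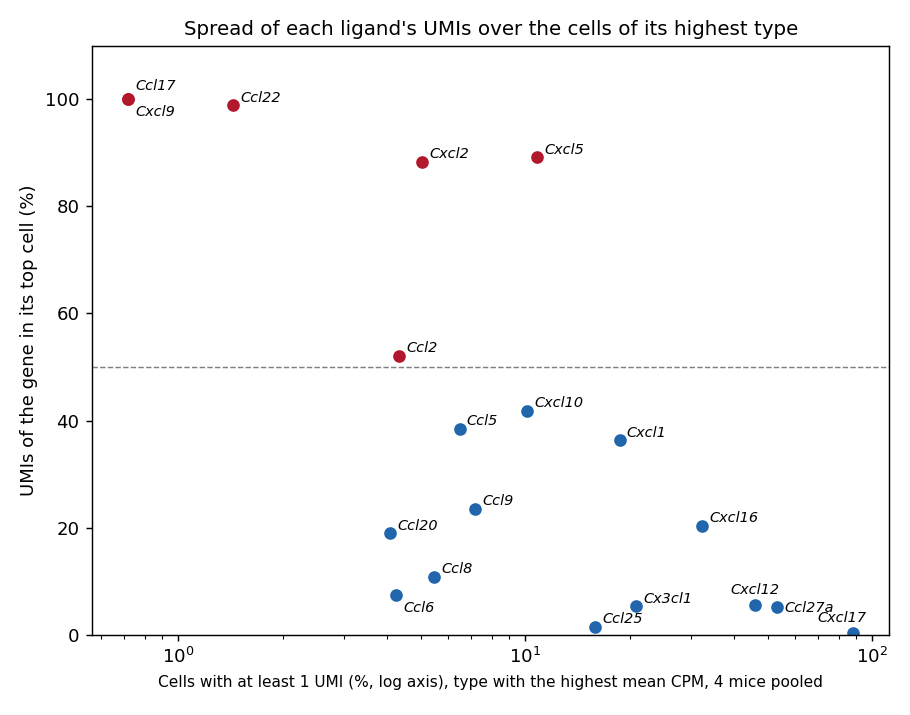
Share of each ligand's UMIs held by its top cell (vertical axis, percent) against the share of cells with at least 1 UMI (horizontal log axis, percent), both in the type with the highest mean CPM and over the 4 mice together. Points above the dashed line at 50% are red. Ccl17, Cxcl9, Ccl22, Cxcl2, Cxcl5 and Ccl2 lie there, and Cxcl17, Cxcl12 and Ccl27a lie at the lower right.

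The myeloid ligands Ccl6, Ccl8 and Ccl9, known from macrophages, were low in typed cells. Ccl6 was at 3.43, 2.29, 8.04 and 8.69 CPM and Ccl8 at 3.14, 6.77, 1.21 and 11.4 CPM in Acinar/MucinDuctal cells, and Ccl9 was at 4.56, 1.67, 2.18 and 12.2 CPM in Ductal-like cells. Macrophage markers summed to 76.2, 83.5, 281 and 302 CPM in Acinar/MucinDuctal cells, with both 4-week mice above both 2-week mice as for Ccl6. Among these markers C1qb, a macrophage complement gene, had the smallest p in that type, with a log2 difference of 2.51 and an adjusted p of 0.0583 by edgeR, and did not pass. Without cells holding at least 3 immune UMIs the log2 ratio of Acinar/MucinDuctal to Acinar cells was 0.95 in place of 1.79 for Ccl6. For Ccl8 it was 0.90 in place of 1.38. A limit of 3 UMIs is harder to reach in shallow cells, and the median depths were 3674 and 27362.5 UMIs. The part of macrophage RNA in the Ccl6, Ccl8 and Ccl9 values was not tested.

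The remaining 19 ligands stayed below the limit. Among them Cxcl15 was at 5.45, 0.81, 6.24 and 2.87 CPM in MucinDuctal cells, and Ccl28, the mucosal partner of Ccl27a at Ccr10, was at 2.47, 3.55, 3.16 and 4.2 CPM in EEC.

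Ligands at least 2-fold above Acinar cells (on log2 of CPM + 1) in 4 of 4 mice were counted against all genes with the same coverage. In MucinDuctal cells these were 5 of 7 ligands (Ccl20, Ccl27a, Cxcl17, Cx3cl1 and Cxcl16), where 57.3% of all genes met the rule. Ccl20 met it in 2-week mouse 1 through 1 cell, without which it was at 0.351 CPM there against 0 in Acinar cells, under the limit. In Ductal-like cells they were 6 of 16 (Ccl27a, Cxcl1, Cxcl12, Cxcl17, Cx3cl1 and Cxcl16), against 64.4% of all genes. These backgrounds depend on the total, since without acinar enzymes in it the counts were 3 of 8 ligands beside 13.2% of genes in MucinDuctal and 6 of 16 beside 22.4% in Ductal-like cells. The rule was met by Cxcl17 alone of 6 ligands in Acinar/MucinDuctal cells (25.9% of genes) and by Cxcl17 and Cx3cl1 of 7 in progenitors (46.6%). It was met by Ccl27a of 4 in Tuft cells (63.6%), by Ccl27a and Ccl25 of 4 in EEC (72.3%) and by 0 of 2 in Acinar.Prolif cells (6.55%). With 2 to 16 ligands tested per type, no difference between the ligands' share and that of all genes was tested. No ligand was 2-fold lower in 4 of 4 mice in any of the 7 types. The ligands counted had a mean of at least 5 CPM in the type or in Acinar cells. In Acinar cells only Cxcl16 and Cxcl17 reached it, at 5.2 and 13 CPM. The other ligands counted had a higher mean in the type than in Acinar cells, so they could not be lower in every mouse. For them the limit itself favoured a higher value in the type. The share of genes 2-fold lower was 0.146% (Acinar.Prolif), 0.169% (Acinar/MucinDuctal), 1.62% (MucinDuctal) and 1.15% (Ductal-like). It was 1.33% in progenitors, 2.82% in Tuft cells and 1.83% in EEC.

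Between 2 and 4 weeks no ligand passed the test in any of 7 types. With edgeR's quasi-likelihood test at an adjusted p under 0.05, calls were 0 of 15 ligands tested in Acinar cells, 0 of 4 in Acinar.Prolif, 0 of 17 in Acinar/MucinDuctal and 0 of 17 in MucinDuctal cells. Calls were also 0 of 8 in Ductal-like cells, 0 of 4 in Tuft cells and 0 of 6 in EEC. The share of all genes called was 0% in 6 of these types and 0.00995% in Acinar.Prolif. At an unadjusted p under 0.05 the ligands numbered 3 in Acinar cells (2.79% of all genes), 0 in Acinar.Prolif (2.45%), 2 in Acinar/MucinDuctal (3.42%), 5 in MucinDuctal (5.39%) and 1 in Ductal-like cells (5.27%). They numbered 0 in Tuft cells (6.74%) and 0 in EEC (4.03%). DESeq2 called 1 ligand, Ccl2 in MucinDuctal cells, for which 202 UMIs of 2-week mouse 1 lay in the single cell described above and 2-week mouse 2 had 12 UMIs. Its shares of genes called were 0.129% (Acinar), 0.0118% (Acinar.Prolif), 0.185% (Acinar/MucinDuctal), 0.323% of MucinDuctal genes, 0.00602% of Ductal-like genes, 0.214% of Tuft genes and 0.0753% of EEC genes.

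The 6 differences with the smallest unadjusted p were as follows. Ccl6 in Acinar/MucinDuctal cells differed by 1.70 ± 0.36 (log2, SE, 4 over 2 weeks; adjusted p = 0.597 by edgeR, 0.0177 to 1 over the alternatives). Cxcl16 in Acinar cells differed by -1.18 ± 0.28 (adjusted p = 0.998 by edgeR, 0.00532 to 1 over the alternatives), with 2-week mice at 8.02 and 7.66 CPM and 4-week mice at 1.91 and 3.2 CPM. The sum of the 10 macrophage markers, none at 0, was also lower at 4 weeks in Acinar cells. It was 25.3 and 30.8 CPM at 2 weeks and 14.2 and 12.5 CPM at 4 weeks, with 0 of 9 tested markers called by edgeR. The sum of the 8 immediate early genes, none at 0, was lower too, at 466 and 1284 against 206 and 253 CPM. Their median log2 difference was -1.46, with 0 of 8 called by edgeR in Acinar cells. The part of either list in the Cxcl16 difference was not tested. Cxcl17 in MucinDuctal cells differed by 0.67 ± 0.20 (adjusted p = 0.824 by edgeR, 0.136 to 1 over the alternatives), and its 4-week mice, at 343 and 280 CPM, were above the 2-week mice at 229 and 197 CPM. Cxcl1 in Ductal-like cells differed by -3.0 ± 0.86 (adjusted p = 0.900 by edgeR, 8.53e-07 to 0.999 over the alternatives). It passed without a filter on low counts and without 2-week mouse 1. Ccl5 in MucinDuctal cells, at 4.98, 2.46, 0.668 and 0.6 CPM, differed by -2.39 ± 0.52 (adjusted p = 0.824 by edgeR, 0.0639 to 1 over the alternatives). Most of its 2-week UMIs lay in 1 cell of each mouse, 38 of 43 and 73 of 91. Cxcl12 in MucinDuctal cells, at 0.927, 1.3, 0.39 and 0.171 CPM, differed by -1.92 ± 0.58 (adjusted p = 0.824 by edgeR, 0.171 to 1 over the alternatives). Markers of stromal cells, none at 0, were lower at 4 weeks there too. The 6 pericyte markers summed to 15.3, 14.5, 3.95 and 6.43 CPM and the 6 fibroblast markers to 29.4, 21.5, 4.34 and 15.8 CPM, and their part in the Cxcl12 difference was not tested. Ccl27a differed by 0.72 ± 0.29 in Acinar/MucinDuctal cells (adjusted p = 0.999 by edgeR), where its 4-week mice, at 14.5 and 8.85 CPM, were above its 2-week mice at 7.42 and 7 CPM. Its other differences were 0.50 ± 0.32 in Ductal-like, 0.40 ± 0.29 in Acinar, 0.24 ± 0.14 in MucinDuctal, 0.09 ± 0.23 in EEC, 0.02 ± 0.41 in Acinar.Prolif and -0.03 ± 0.19 in Tuft cells. Ccl25 differed by -0.11 ± 0.23 in EEC. The median ligand difference was -0.49 in MucinDuctal and -0.17 in Acinar cells, beside medians of -0.01 and -0.03 over all genes tested there. It was 0.18 in Acinar/MucinDuctal, 0.21 in Acinar.Prolif, -0.22 for Ductal-like cells, 0.06 for EEC and -0.08 for Tuft cells, beside 0.01 over all genes in Acinar.Prolif and -0.01 in the other 4 types.

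The difference of the time effects between MucinDuctal and Acinar cells was tested with mouse as a block. No ligand of 19 passed with edgeR (0% of 14098 genes), 2 did at an unadjusted p under 0.05 (3.05% of genes), and 0 of 32 passed with DESeq2 (0% of genes). The smallest p belonged to Cxcl10, at -3.72 ± 0.93 (log2, SE, adjusted p = 1 by edgeR), and the next to Ccl5. In MucinDuctal cells of 2-week mouse 1 a single cell held 78 of 99 Cxcl10 and 38 of 43 Ccl5 UMIs.

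The cells outside the EYFP-positive table held 13.7% of all UMIs, most of those of several inflammatory ligands and few of those of Cxcl17 and Ccl20. Since EYFP-positive cells had been sorted, these shares describe the sorted libraries and not the tissue. Ccl8 had 14320 of its 14898 UMIs there, Ccl12 8213 of 8374, Ccl6 9232 of 9640 and Cxcl9 5223 of 5438. Cxcl17 had 1493 of 29021 there and Ccl20 56 of 622. Ccl27a, with 563 of 3586, and Ccl25, with 367 of 2031, lay somewhat above the share of all UMIs. Of the neutrophil attractants, Cxcl2 had 3148 of 3640 UMIs outside, Cxcl1 298 of 754 and Cxcl5 28 of 291. The low share of Cxcl5 rests on 1 Ductal-like cell, which held 149 of its 263 UMIs in typed cells. Cxcl16 was divided, with 9737 of 13407 UMIs outside and 3670 in typed cells.

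Outside cells were sorted into marker classes by at least 3 detected markers of 1 class and more of it than of any other. With acinar enzymes among the markers, 48.8% of the 7778 cells went to the acinar class. The classes below leave those markers out. That choice was made after seeing the data. Of 29 ligands with at least 50 outside UMIs, 16 had over 50% of them in the 2011 cells with macrophage markers, which held 29.1% of all outside UMIs. Of 14278 genes with as many outside UMIs, 9.04% had over 50% in those cells. With the acinar class kept, 13 ligands and 5.55% of genes did, in 1618 cells with 23.5% of outside UMIs. The share was 99.2% for Ccl12, 97.8% for Ccl6, 97.4% for Ccl8 and 82.3% for Cxcl16. Endothelial-marker cells, 130 in number, held 73.5% of Cxcl12 and 61.7% of Ccl21a. Fibroblast-marker cells led for Cxcl14 (74.8%), Ccl11 (86.6%) and Ccl19 (73.2%), and mucin/ductal-marker cells for Cxcl17 (83%) and Ccl20 (91.1%). That last class held 2734 cells and 35.3% of outside UMIs. Of these cells 892 were just at the limit of 3 markers, and 2205 (80.7%) went to the acinar class where that was kept. The mucin/ductal class then held 183 cells, and the rest were in neither class. With the acinar class kept, that class led for 11 ligands, among them Cxcl12 (29.6%), Ccl22 (76%), Cxcl17 (39.1%) and Ccl20 (28.6%). Ccl21a was then led by T or NK cells (37.9%), and fibroblast-marker cells held 44.8% of Ccl11.

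Ccl5 was split among T or NK cells (27.4%), macrophages (23.3%) and cells of no class (40.3%). With the acinar class kept, that class held 49.1% of Ccl5, macrophages 15.4% and T or NK cells 15.2%. Cxcl16 was found in 74% of the macrophage-marker cells and, at the same time, in 7.43% of mucin/ductal-marker cells outside the table, whose median depth was 2343.5 UMIs against 6451. In macrophage-marker cells it was at 709, 535, 514 and 383 CPM, more than in the Ductal-like cells of any mouse.

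**Figure D5:**
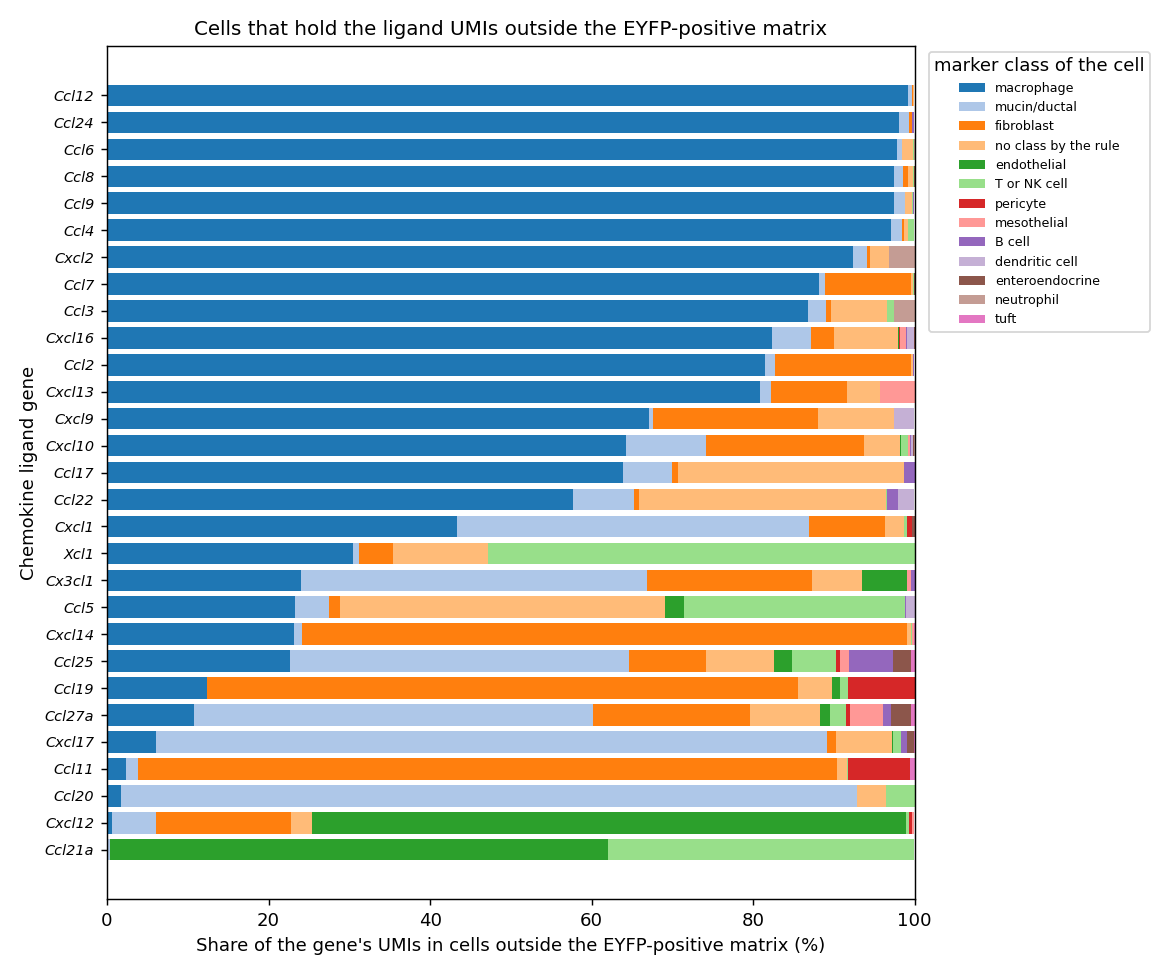
Share of each ligand's UMIs (horizontal axis, percent) by marker class of the cell (colour), over the cells outside the EYFP-positive table of the 4 mice together, for 29 ligands with at least 50 UMIs there. Macrophage-marker cells hold over 50% for 16 ligands, from Ccl12 at 99.2% down to Ccl22 at 57.7%, while cells with mucin or ductal markers hold 83% of Cxcl17 and 91.1% of Ccl20. The classes leave acinar markers out, and with them kept the acinar class leads for both ligands (39.1% and 28.6%).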

How the data were processed

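Single-cell RNA was measured in sorted pancreas cells of 4 mice, 2 per time point. The deposited tables hold raw UMI counts per gene and cell, which the authors made with Cell Ranger 4.0.0 and Seurat 3.2.3 on mm10, per the submitters' processing notes. The annotation used and whether strand was used in counting are not given in the sources used here. Cell type and cluster names are the authors'. Counts of the 38 ligands in the EYFP-positive table equalled those in the merged table (summed difference 0). The smallest cell had 1000 UMIs, the highest mitochondrial share was 6%, and libraries held 72459531 to 103610807 UMIs.

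UMIs were summed per mouse and type and scaled to CPM. Types with at least 20 cells in each mouse were compared between times with edgeR 4.0.16 (robust quasi-likelihood test, TMM, filterByExpr) under R 4.3.3, with Benjamini-Hochberg adjustment over all genes tested in the type. The mouse is the replicate (n = 2 per time), and nothing in the labels says more of the animals. The SE is the log2 difference divided by the square root of its F statistic. In counts simulated for MucinDuctal cells (13293 genes, 200 changed 4-fold) the test recovered 184 with 15 false calls, and in those for Acinar cells (12101 genes) 164 of 200 with 4. Shares of positive cells carry 95% exact binomial intervals, and a share of 0 an upper limit of 3 counts. Shares at equal depth are expected values after thinning to 1500 UMIs, leaving out shallower cells. No doublet caller was run. Cells with at least 3 immune-marker UMIs were left out as an alternative in its place. Counts were not corrected for RNA of other cells caught in the same droplet. Low shares of positive cells were not set against such a background. Ligands reaching a mean of 5 CPM in a type were described, and of other lists the genes with the smallest p or at least 20 CPM could be named. The cysteine and ELR motif search in proteins, planned at the start, was not run. Cxcl15, Ccl28 and the non-ligand genes overlapping a described ligand were named after their values were seen. The ligands and lists were chosen with earlier results of these data known. Coordinates are from GENCODE vM21 (GRCm38), in which 37 of 38 symbols matched, and promoters from RefSeq (GRCm38.p6).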

Additional observations from a re-analysis of the deposited data

How the results depend on the processing

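Of 364 values recomputed for 43 results, 306 stayed within the limit set for their kind, 49 moved beyond it and 9 changed sign. The sign changes were log2 ratios of Ductal-like to Acinar cells. Leaving out cells with at least 3 immune UMIs gave -0.10 for Ccl17, -0.14 for Ccl22 and -0.18 for Cxcl9, and leaving out the top cell of each sum, an alternative chosen after seeing the data, gave -0.10, -0.31 and -0.17. Leaving out 1 mouse gave -0.08 (without 2-week mouse 2) to 1.63 for Ccl17, -0.06 (without 2-week mouse 2) to 1.70 for Ccl22 and -0.03 (without 2-week mouse 1) to 1.55 for Cxcl9.

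Counts of ligands 2-fold from Acinar cells are given with the share of all genes under the same setting in parentheses. In Ductal-like cells, 6 of 16 were higher (64.4%) as reported, 6 of 16 without acinar enzymes in the totals (22.4%), 7 of 19 as UMIs per cell (46.4%), 8 of 12 without immune-UMI cells (62.8%) and 8 of 16 with log2(CPM + 0.1) (68.9%). Leaving out 1 mouse gave 6 to 9 there, the 9 being of 13 without 2-week mouse 2 (71.4%) and of 18 without 4-week mouse 1 (68.1%). In the other types, those higher without acinar enzymes numbered 2 in Acinar/MucinDuctal (8.22%), 3 in MucinDuctal (13.2%) and 0 in Tuft cells (25.7%), and those lower 1 in progenitors (2.77%), 2 in Tuft cells (6.38%) and 1 in EEC (4.37%). As UMIs per cell, those higher numbered 0 in Acinar/MucinDuctal (1.59%), 3 in MucinDuctal (24.6%), 0 in Tuft cells (31.1%) and 0 in EEC (23.5%), and those lower 1 in Tuft cells (5.42%) and 1 in EEC (5.52%). With log2(CPM + 0.1), 3 were higher in Acinar/MucinDuctal (32.4%) and 2 in Tuft cells (66.9%). Without immune-UMI cells, 2 were higher in Tuft cells (65%). Leaving out 1 mouse gave 1 to 2 higher in Acinar/MucinDuctal (26.2 to 48.4%), 1 to 3 in progenitors (49.2 to 59.7%) and 1 to 2 in Tuft cells (63.7 to 71.7%). It gave 0 to 1 lower in progenitors (1.45 to 1.53%), Tuft cells (2.88 to 3.22%) and EEC (1.93 to 2.02%).

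Ligands called over time, 0 with edgeR as reported, numbered 3 in Acinar (1.48% of all genes), 2 in Acinar.Prolif (0.3%), 1 in Acinar/MucinDuctal (0.687%), 1 in Ductal-like (0.488%) and 1 in Tuft cells (1.44%) without a filter on low counts, and 1 in MucinDuctal cells with DESeq2 (0.323%). Leaving out 1 mouse gave 0 to 2 in Acinar.Prolif (0.0468% where 2), 0 to 1 in Acinar/MucinDuctal (0.976% where 1), 0 to 2 in MucinDuctal (0.389% where 2) and 0 to 7 in Ductal-like cells, the 7, of 12 ligands tested, without 2-week mouse 1 (3.11% of all genes), and 1 to 2 for the difference between MucinDuctal and Acinar cells (0.0133 to 6.64%). The lone mouse is then assumed to vary like the other group. The cause of these changes was not tested. No paired analysis was possible because the numbers 1 and 2 were given in accession order and tie no mouse of one time to a mouse of the other. Precision is limited by 2 mice per time and, in Ductal-like cells, by 22 to 56 cells per mouse.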
